A study of Mus musculus with 10 samples.

Results

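The MHC class II pathway genes of the mouse were followed through colon tissue and colon organoids in a study of p53 loss after colitis. They were taken as every probe of the microarray, controls left out, whose gene name was 1 of 10: H2-Aa, H2-Ab1, H2-Eb1, Cd74, Ciita, H2-DMa, H2-DMb1, H2-DMb2, H2-Oa and H2-Ob. These genes carried 21 probes, out of 56605 probes and 25160 named genes on the array. A gene entered a test where the scanner software flagged a probe of it as well above background throughout all channels of 1 or more groups, and where enough arrays held a usable spot. By this filter 8 of the 10 genes were tested in tissue, all but H2-DMb2 and H2-Ob, and 4 in organoids: H2-Ab1, Cd74, Ciita and H2-DMb1.

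The study hybridised 10 two-colour arrays. On 4 of them, colon tissue of male Trp53 knockout (KO) mice was set against that of wild-type (WT) mice, as 2 pairs of mice with the dyes swapped within each pair. On 1 array of pair 2 the source name gives the KO mouse as replicate 1, while the title and the animal identifier give replicate 2, which was used. All of these mice had drunk 2% dextran sodium sulfate (DSS), which injures the colonic epithelium, for 5 to 7 days and were killed 2 months later. The knockout was made with tamoxifen in Axin2CreERT2 mice with floxed Trp53 alleles (Trp53 fl/fl), so that Cre acts in Axin2-expressing cells and what descends from them. The labels give the controls only as WT, and no age. The other 6 arrays compared 3 kinds of organoid, which are cultures grown from isolated colonic crypts, with 2 replicates each that the series describes as independent. WT and KO organoids grew in full medium with surrogate Wnt (0.328 nM), the Wnt pathway activator CHIR-99021 (3 uM), R-spondin 1 conditioned medium (25%), noggin and EGF. KO organoids came from VillinCreERT2 x Trp53fl/fl mice, were given 800 nM 4OH-tamoxifen for 2 days and were then selected with Nutlin-3A. KOWI organoids were p53 KO organoids described as Wnt-independent, grown without surrogate Wnt and CHIR-99021, so their line and their medium cannot be told apart. No age, donor mouse or passage of the organoids was given.

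MHC class II molecules show peptides from engulfed or endosomal protein to CD4 T cells. H2-Aa encodes an alpha chain, and H2-Ab1 and H2-Eb1 encode beta chains. Cd74 encodes the invariant chain, which fills the groove of new molecules and takes them to the endosome. H2-DMa with H2-DMb1 or H2-DMb2 forms H2-M, which removes the last piece of the invariant chain and lets peptide bind, and H2-Oa with H2-Ob forms H2-O, which inhibits H2-M. Ciita is the master coactivator of class II genes, and it is constitutive in B cells and dendritic cells and induced by interferon gamma in other cells, intestinal epithelium among them. It does not bind DNA itself but joins RFX, CREB and NF-Y on a shared promoter module, of which the Y box holds NF-Y and the X box holds RFX.

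The promoters are shown because this shared module is what links the members. RefSeq promoters of build GRCm38.p6 were at hand for 7 of the 10 members, as 8 windows of 250 bases before and 50 bases after a start. Searched on both strands, TGATTGG, the core of the Y box, was found in 6 of the 8 windows, and AGCAAC, a part of the X box, in 3. Of all 32851 promoters of the same length, 7.82% held the first on either strand and 14.8% the second. The 6 windows that held the Y box core are printed from base -150 to base -21, in the direction of transcription, with both motifs in capitals, as genes of the alpha and beta chains first, then H2-M and H2-O. The positions are chr17:34287844-34287973 on the minus strand for H2-Aa, and on the plus strand chr17:34305717-34305846 for H2-Eb1, chr17:34153041-34153170 for H2-DMb1, chr17:34145099-34145228 for H2-DMb2, chr17:34092229-34092358 for H2-Oa and chr17:34238755-34238884 for H2-Ob.
H2-Aa: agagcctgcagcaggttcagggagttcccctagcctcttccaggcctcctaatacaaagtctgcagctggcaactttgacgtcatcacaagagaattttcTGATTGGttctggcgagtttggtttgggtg
H2-Eb1: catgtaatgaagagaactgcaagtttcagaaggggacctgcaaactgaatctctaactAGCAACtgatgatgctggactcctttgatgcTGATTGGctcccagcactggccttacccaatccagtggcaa
H2-DMb1: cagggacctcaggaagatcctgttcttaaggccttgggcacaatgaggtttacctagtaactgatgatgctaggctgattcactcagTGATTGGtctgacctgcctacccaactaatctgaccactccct
H2-DMb2: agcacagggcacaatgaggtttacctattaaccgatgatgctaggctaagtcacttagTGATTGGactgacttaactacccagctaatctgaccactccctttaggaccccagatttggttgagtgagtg
H2-Oa: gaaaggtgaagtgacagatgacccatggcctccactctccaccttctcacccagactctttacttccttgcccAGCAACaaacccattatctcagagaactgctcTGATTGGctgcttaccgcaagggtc
H2-Ob: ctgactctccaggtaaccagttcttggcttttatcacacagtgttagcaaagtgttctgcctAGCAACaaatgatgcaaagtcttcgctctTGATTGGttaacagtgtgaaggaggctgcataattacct

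The Y box core began between base -92 (H2-DMb2) and base -45 (H2-Oa). In the 3 windows with both motifs, AGCAAC began 29 (H2-Ob), 31 (H2-Eb1) and 32 (H2-Oa) bases upstream of it. When set on their Y box cores, the windows of H2-DMb1 and H2-DMb2, which are neighbouring copies of a gene, shared 87 of 101 bases. Both windows of H2-DMa held neither motif.

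The probes themselves are 60-base oligonucleotides, and 3 that lie in coding sequence are given to show what was hybridised, in the direction of the transcript (mm9 coordinates from the files).
H2-Aa, chr17:34421285-34421344, minus strand: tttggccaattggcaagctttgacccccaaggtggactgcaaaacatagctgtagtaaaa
H2-Ab1, chr17:34404357-34404416, plus strand: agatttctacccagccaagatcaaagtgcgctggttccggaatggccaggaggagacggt
H2-Oa, chr17:34232033-34232092, plus strand: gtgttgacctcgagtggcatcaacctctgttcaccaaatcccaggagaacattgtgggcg

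In 1 member several probes could be set against each other. H2-Ab1 had 4 probes measured in tissue, and a pair of them, at chr17:34406296-34406355 and chr17:34406305-34406363, shared 51 bases with 1 mismatch. The other genes tested rested on 1 measured probe each in tissue. The organoid test of H2-DMb1 rested on the probe at chr17:34297109-34297168, the same as in tissue.

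The tissue comparison asks what p53 loss changes in the colon long after injury. None of the 8 class II genes tested changed between KO and WT mice by the test. By the mean of their 2 arrays the mouse pairs went opposite ways. In pair 1 the KO mouse was lower than its WT partner for 8 of 8 genes, and in pair 2 it was higher for 7 of 8. Some of these means were small, and the 2 arrays of pair 1 differed in sign for some genes. They gave 0.04 and -0.29 for H2-Aa, -0.07 and 0.03 for H2-Ab1, and 0.15 and -0.18 for H2-Eb1. The members' median log2 ratio (KO over WT) stood at -0.12 for pair 1 and 0.23 for pair 2, against -0.01 and 0.00 over all genes tested. A lower value in pair 1 together with a higher value in pair 2 was seen in 7 of the 8 members and in 18.5% of all genes. In bulk tissue, fewer cells of a type and less RNA per cell cannot be told apart.

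**Figure D1:**
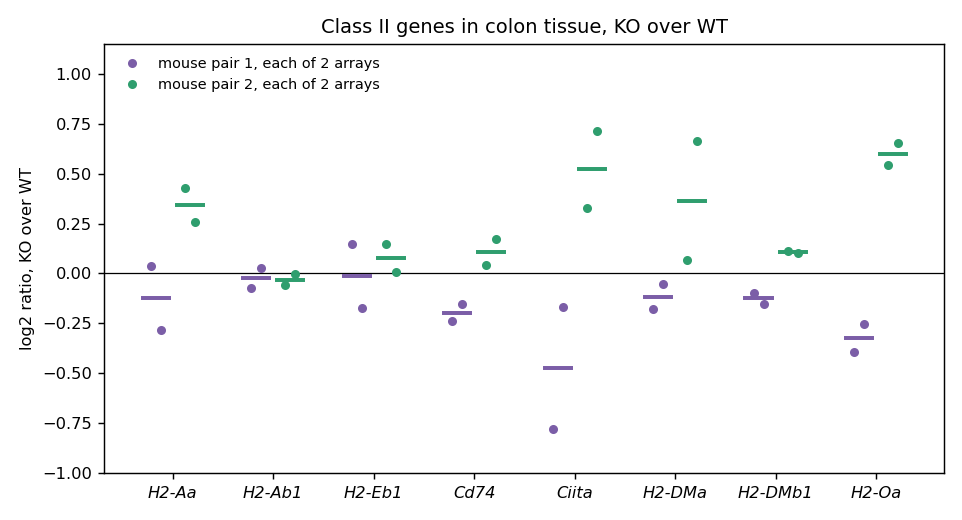
Log2 ratio of KO over WT (y axis) for the 8 class II genes tested in colon tissue (x axis). Points are the 2 dye-swapped arrays of each mouse pair and bars their mean. The bar of pair 1 lies below 0 for 8 genes and that of pair 2 above 0 for 7.

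Ciita, the coactivator, had the widest gap between the pairs. Its log2 intensity was 9.74 in KO mouse 1 and 10.21 in WT mouse 1, and 10.85 in KO mouse 2 and 10.33 in WT mouse 2. Both WT mice lay between the KO mice. The log2 ratio was -0.48 in pair 1 and 0.52 in pair 2, with a mean of 0.02 (SE 0.31, n = 2 pairs, limma adjusted p = 0.984).

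H2-Oa, the alpha chain of the inhibitor H2-O, had a log2 intensity of 8.49 in KO mouse 1 and 8.81 in WT mouse 1, and of 8.94 in KO mouse 2 and 8.34 in WT mouse 2. Its log2 ratios were -0.32 and 0.60, and all 4 arrays kept the sign of their pair. The mean was 0.14, or 1.10-fold (SE 0.29, limma adjusted p = 0.871). H2-Ob, its partner, was well above background in 6 of 8 tissue channels at its brightest probe and was not tested. That probe read 347 in Cy3 and 870 in Cy5 for the mice of pair 1 on their first array and 77 and 270 on the second, and for pair 2 it read 63 and 124, then 114 and 134.

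Among the chains that present peptide, H2-Aa had a log2 intensity of 10.96 in KO mouse 1, 11.08 in WT mouse 1, 11.53 in KO mouse 2 and 11.19 in WT mouse 2. Its log2 ratios were -0.12 and 0.34. The beta chain genes moved less: H2-Eb1 gave -0.01 and 0.08, and H2-Ab1 gave -0.02 and -0.03 at its brightest probe. The other 3 H2-Ab1 probes gave between -0.05 and 0.01 in pair 1 and between 0.09 and 0.27 in pair 2. Of its 4 probes, the brightest was below 0 in both pairs, the coding probe printed above was above 0 in both (0.0064 and 0.27), and the other 2 went from below to above 0.

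Cd74 had a log2 intensity of 15.08 in KO mouse 1, 15.27 in WT mouse 1, 15.12 in KO mouse 2 and 15.02 in WT mouse 2. Both KO mice lay between the WT mice, and the log2 ratios were -0.20 and 0.11 (mean -0.04, SE 0.11, limma adjusted p = 0.893). Of the H2-M genes, H2-DMa had log2 ratios of -0.12 and 0.36, with KO mouse 2 (9.35) above both WT mice (9.34 and 8.99). H2-DMb1 had -0.12 and 0.11, with both KO mice between the WT mice. H2-DMb2 was well above background in 2 of 8 tissue channels. Over the 8 genes the mean log2 ratio lay between -0.04 and 0.14, with standard errors from 0.06 to 0.31.

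Of all 12830 genes tested in tissue, limma called 0 at an adjusted p under 0.05, which is 0%, so the members' count of 0 is that of the array as a whole. At an unadjusted p under 0.05 there were 1880 genes, and 0 of the 8 members. The smallest adjusted p of any gene was 0.254. Bright probes gave small ratios: the median size of the log2 ratio within a pair fell from 0.25 for genes with a mean log2 intensity of 8 to 10 to 0.043 for those above 16. H2-Eb1 (17.4) and H2-Ab1 (16.9) belong to the brightest class.

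**Figure D2:**
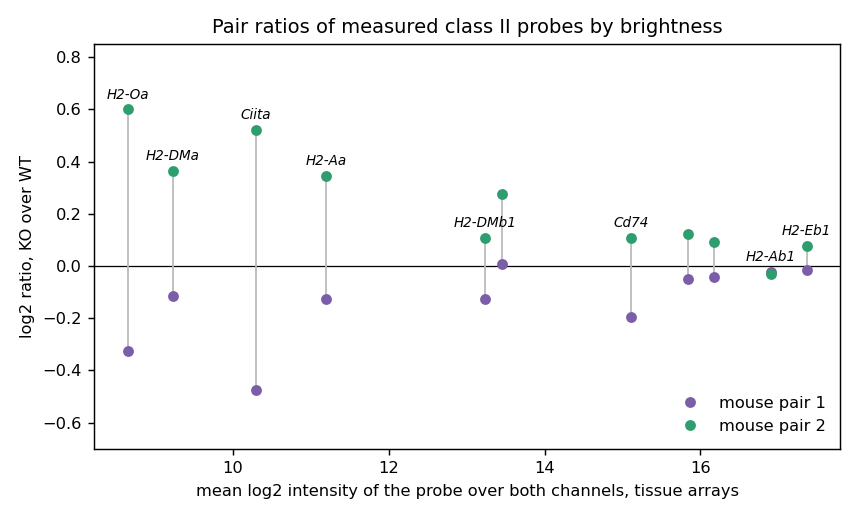
Log2 ratio of KO over WT in each mouse pair (y axis) against the mean log2 intensity of the probe (x axis) for the 11 class II probes measured in tissue; unlabelled points are further H2-Ab1 probes. The pairs lie 0.92 apart at H2-Oa (8.65) and 0.09 apart at H2-Eb1 (17.4).

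Genes around the pathway were read from lists, beside the markers of cells that carry class II. No gene of any list passed the test in tissue. Over all genes tested in tissue, 55.6% were lower in pair 1 than in pair 2. Of 5 B cell markers tested, all 5 were lower in pair 1 than in pair 2, with medians of -0.77 and 0.55. Cr2, the complement receptor of B cells and follicular dendritic cells, gave -1.23 and 0.88. Of 7 leukocyte genes, all 7 were lower in pair 1 than in pair 2 (medians -0.01 and 0.57), and Ptprc, the pan-leukocyte phosphatase CD45, gave -0.25 and 1.96. The 7 dendritic cell genes had medians of -0.01 and 0.60, and the 10 macrophage genes -0.01 and 0.48, with Adgre1, which encodes F4/80, at 0.54 and 1.79. The T cell genes had medians of 0.06 and 0.31 over 9 genes.

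The summed signal of the class II members themselves lay between 189141 and 253377 in Cy3 for WT mice and between 196420 and 209963 for KO mice, and in Cy5 between 453561 and 603710 for WT and 497434 and 686368 for KO. That of the B cell markers ranged in Cy3 from 718 to 1910 in WT and from 868 to 1205 in KO, and in Cy5 from 1699 to 3434 and from 2089 to 2372. For the leukocyte genes the dyes went opposite ways. In Cy3 their sum ranged from 28276 to 32108 in WT and from 21868 to 28759 in KO. In Cy5 it ranged from 45171 to 56931 in WT and from 61338 to 95255 in KO. This was not particular to them: the class I pathway genes gave 673454 to 823796 in WT and 626138 to 644715 in KO in Cy3. In Cy5 they gave 1530340 to 1872100 in WT and 1555420 to 2321520 in KO. These sums are not normalized between arrays and leave out outlier spots, so the genes summed can differ between arrays. By the ratios within arrays, immune cell marker lists and class II genes had higher medians in pair 2 than in pair 1. This direction was also seen in 15 of 15 class I pathway genes and 9 of 12 epithelial genes (epithelial medians -0.16 and -0.09). Of the lists tested, only the transcription factors of class II had the lower median in pair 2. The direction was therefore not particular to immune cell markers. The part of immune cells in the class II ratios was not tested.

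**Figure D3:**
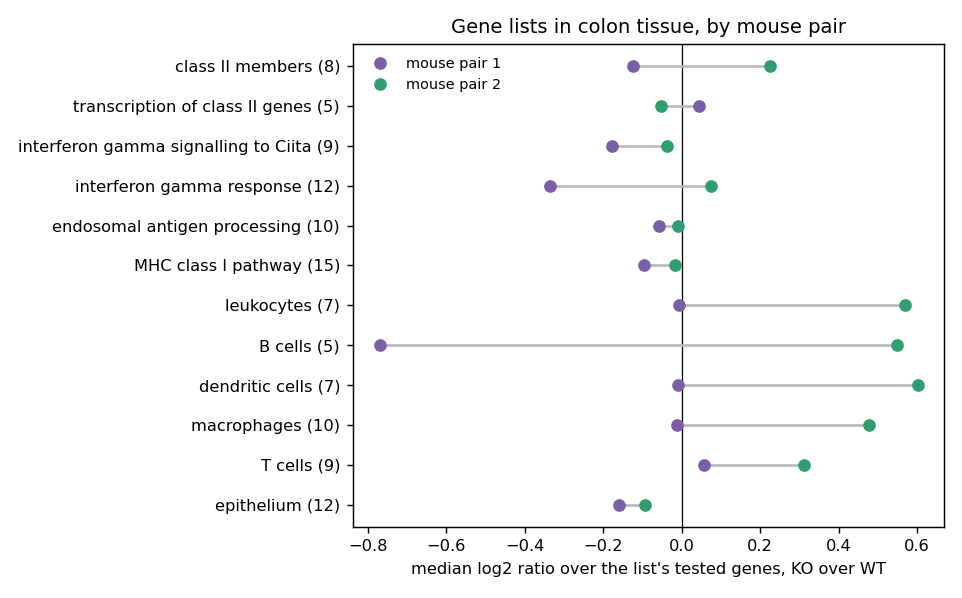
Median log2 ratio of KO over WT in colon tissue (x axis) for the class II members and each gene list (y axis, number of genes tested in brackets), by mouse pair. Pair 2 lies right of pair 1 for each list but the class II transcription factors.

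The genes that act on class II expression moved less. The 5 tested of 7 genes for RFX, NF-Y and CREB had medians of 0.04 and -0.05, from Rfxank (mean -0.16, SE 0.06, limma adjusted p = 0.405), a subunit of RFX, to Creb1 (0.10, SE 0.06). The 9 genes from the interferon gamma receptor to Ciita had medians of -0.18 and -0.04. Irf2, a transcription factor of that path, was at -1.21 and -0.60 (SE 0.20, limma adjusted p = 0.295), and Jak1 at 0.03 and 0.17. The 12 interferon gamma response genes had medians of -0.34 and 0.07, from Ido1, which degrades tryptophan, at -1.02 and -0.56 (SE 0.16, adjusted p = 0.286) to Gbp5 at -0.23 and 0.68.

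The 10 genes of endosomal processing, which cut antigen and invariant chain, had medians of -0.06 and -0.01. Sppl2a, the protease that clears the remnant of Cd74 from the membrane, was at -0.63 and -0.33 (SE 0.11, adjusted p = 0.303), and Lgmn at -0.10 and 0.60. The class I pathway had 0 of 15 genes with a mean above 0 and medians of -0.10 and -0.02, from Erap1 at -0.66 and -0.14 to Tap1 at -0.05 and -0.02. Among all genes tested in tissue, 48.9% had a mean above 0. Of 3 costimulatory ligands tested, 2 had a mean above 0 and none passed: Cd86 was at 0.13 and 0.75, Cd80 at 0.08 and 0.34, and Cd274, which encodes the inhibitory ligand PD-L1, at -0.27 and -0.02. The 12 epithelial genes also had 0 means above 0, from Cdx2 (-1.20 and -0.96, adjusted p = 0.254) to Krt20 (-0.02 and -0.02).

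The organoid comparisons ask what p53 loss, and growth without Wnt after p53 loss, change in cultured epithelium. H2-DMb1, the beta chain of H2-M, was the class II gene that passed the test: it rose 2.22-fold in KOWI over WT organoids. It had entered the test only through KOWI, the group in which it was high, since some WT and KO channels did not reach the background flag. Cd74 and Ciita also entered only through KOWI, while H2-Ab1 entered through KO. H2-Ab1, Cd74 and Ciita passed no organoid test. Organoid signals of the members were low. For H2-Aa the probe above read -6 to 0 in Cy3 and -25 to -5 in Cy5 on the organoid arrays, against 1127 to 1980 and 2511 to 4589 on the tissue arrays. H2-Aa, H2-DMb2 and H2-Oa were well above background in 0 of 12 organoid channels, and H2-DMa in 6, all of them Cy3. H2-Eb1 was well above background in 7 of 8 usable organoid channels, with signals of 35 to 60 in Cy3 and 99 to 315 in Cy5. It was not tested, because outlier spots on 2 arrays left the samples unlinked.

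The 6 organoid arrays linked the 6 samples in a ring, with replicate 1 in Cy3 and replicate 2 in Cy5 throughout, so a dye effect and a replicate effect cannot be told apart; the fit holds 1 term for them. Each sample was read on 2 arrays beside different partners, and its 2 readings differed. Over 7706 genes, the readings of a WT or KO sample on its 2 arrays correlated with r of 0.950 to 0.963, below the r of 0.969 to 0.991 between 2 different samples on 1 array. For the KOWI samples r was 0.991 and 0.994. The cause was not tested. For this reason the fitted values and main log2 ratios below rest on ratios within an array. Single-channel readings are given beside them, and their order across arrays carries this limit.

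In the H2-M genes, the H2-DMb1 probe read 15 and 80 in WT 1, 38 and 75 in KO 1, and 307 and 387 in KOWI 1, all in Cy3. In Cy5 it read 35 and 195 in WT 2, 53 and 312 in KO 2, and 763 and 603 in KOWI 2. Within each dye both KOWI readings were above every WT and KO reading, though these readings come from different arrays. WT 2 and KO 2 were not well above background on the arrays without KOWI and were well above it beside KOWI 1. The fitted log2 values, relative to the mean of the 6 samples, were -0.32 and -0.62 in WT, -0.15 and -0.26 in KO and 0.82 and 0.54 in KOWI.

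**Figure D4:**
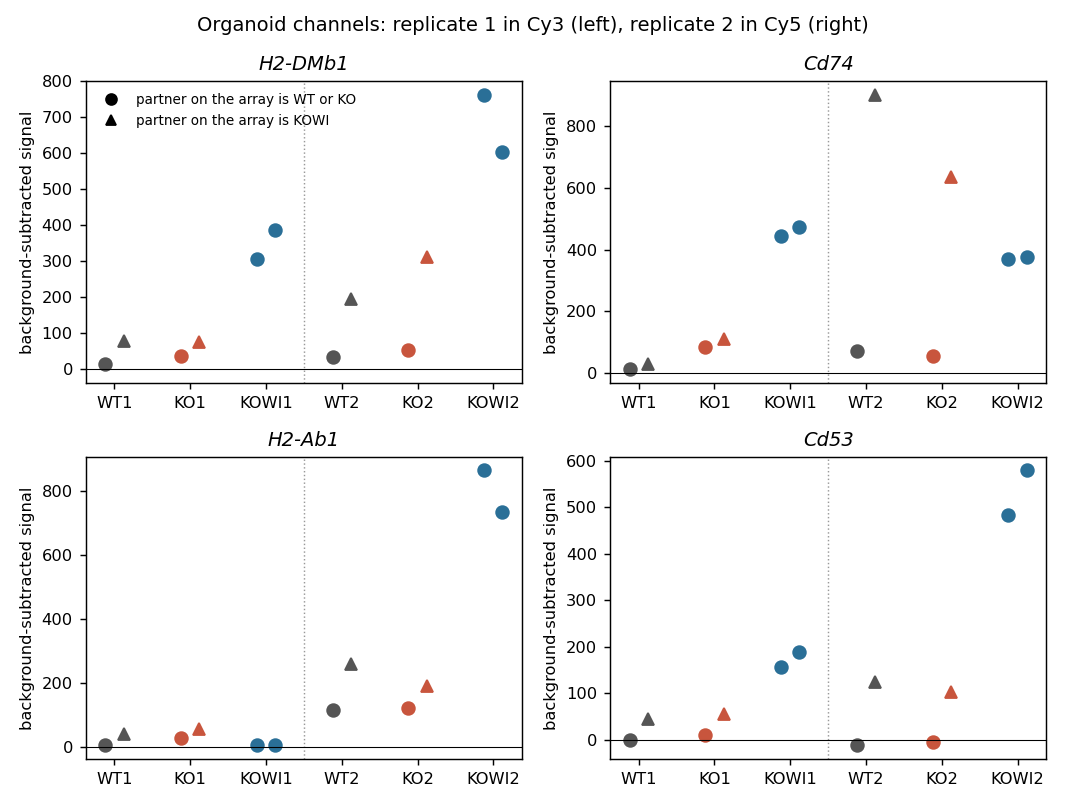
Background-subtracted signal (y axis) of H2-DMb1, Cd74, H2-Ab1 and the leukocyte gene Cd53 in each organoid sample (x axis), with 2 readings per sample; circles are readings beside WT or KO, triangles readings beside KOWI. H2-DMb1 and Cd53 stand highest in KOWI within each dye, while Cd74 in Cy5 is highest in WT 2 beside KOWI 1 (901).

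The log2 ratio of H2-DMb1 in KOWI over WT was 1.15 (SE 0.17, n = 2 per group, limma adjusted p = 0.0273), with 1.14 in replicate 1 and 1.16 in replicate 2. Over KO it was 0.89 (SE 0.17, adjusted p = 0.0882), with 0.97 and 0.80. KO over WT gave 0.26 (SE 0.17, adjusted p = 1.00), with 0.17 and 0.36. So 1 of the 4 members tested was called in KOWI over WT, where 5.59% of all genes were called, and 3.48% of all genes were called as higher. The call was lost in 9 of 19 alternative settings, all with a log2 ratio of at least 1.11: it was lost without KOWI 1 (adjusted p = 0.0997), KOWI 2 (0.129), WT 1 (0.253), WT 2 (0.231) or KO 2 (0.171). Over these 19 settings the log2 ratio ranged from 1.11 to 1.86 and the adjusted p from 9.065e-05 to 0.253. The other H2-DMb1 probe, at chr17:34290109-34290168 and made for an Ensembl transcript, did not show this order. Among usable spots it read highest in KO 1 (125) in Cy3 and in WT 2 (591) in Cy5, against 44 and 17 in KOWI 1 and 64 in KOWI 2. It did not pass the filter and was not tested.

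Cd74 read 12 and 31 in WT 1, 84 and 110 in KO 1 and 443 and 472 in KOWI 1, all in Cy3. In Cy5 it read 73 and 901 in WT 2, 56 and 635 in KO 2, and 371 and 375 in KOWI 2. Both high readings of WT 2 and KO 2 were on the arrays they shared with KOWI 1. The fitted values were -0.41 and -0.24 in WT, 0.58 and -0.38 in KO and 0.14 and 0.32 in KOWI. KO 1 stood above every other sample. The log2 ratio was 0.55 in KOWI over WT (SE 0.32, adjusted p = 0.388), with 0.56 and 0.55 in the replicates. KO over WT was 0.42 (SE 0.32), with 0.99 and -0.15, and KOWI over KO was 0.13 (SE 0.32), with -0.43 and 0.70. When channels were fitted singly, with WT and KO read only on arrays without KOWI, Cd74 in KOWI over WT rose to 1.43 (SE 0.38, adjusted p = 0.0471) and H2-DMb1 to 1.58 (SE 0.39, adjusted p = 0.0407). That setting was chosen after the readings had been seen, and called 23.6% of all genes.

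H2-Ab1 differed between the KOWI replicates. At the probe used it read 8 and 7 in KOWI 1 (Cy3) and 864 and 733 in KOWI 2 (Cy5). The other samples read 7 to 56 in Cy3 and 116 to 260 in Cy5. The overlapping probe read 0 and 3 in KOWI 1 and 688 and 673 in KOWI 2, against 21 to 30 in the other Cy5 channels. On that probe WT 1 read 59 and KO 1 read 80 beside KOWI 2, and 0 and 25 beside their other partners. A further probe in the transcript read 310 and 152 in KOWI 2 and at most 5 in the other Cy5 channels, while the coding probe printed above read 147 and 93 in KOWI 2 and 15 to 134 in the others. The fitted values were -0.48 and 0.19 in WT, -0.11 and 0.17 in KO, and -0.74 and 0.96 in KOWI, the lowest and the highest of the 6 both being KOWI samples. The log2 ratio in KOWI over WT was 0.26 (SE 0.35, adjusted p = 0.744), with -0.26 and 0.77.

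**Figure D5:**
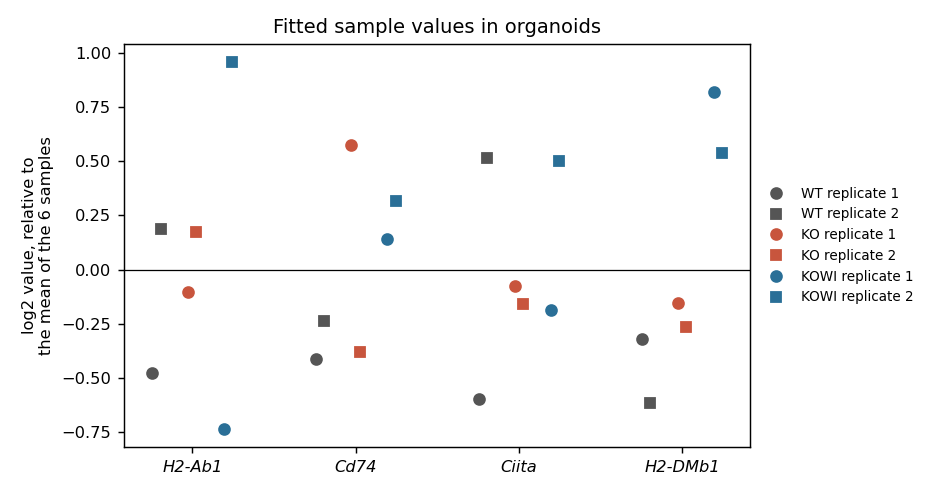
Fitted log2 value of each organoid sample relative to the mean of the 6 samples (y axis) for the 4 class II genes tested (x axis). The KOWI samples stand apart from WT and KO for H2-DMb1 (0.82 and 0.54), and at both ends for H2-Ab1 (-0.74 and 0.96).

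Ciita was tested through a different probe than in tissue, because its tissue probe was well above background in 2 of 12 organoid channels. That probe read 2 to 96 in Cy5 in organoids and 1267 to 1815 in tissue. The probe used gave fitted values of -0.60 and 0.52 in WT, -0.08 and -0.16 in KO, and -0.19 and 0.50 in KOWI, with 5 of the 6 arrays usable. The WT samples spanned all the others. The log2 ratios were -0.07 in KO over WT, 0.20 in KOWI over WT and 0.28 in KOWI over KO (SE 0.30 each).

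Because 3 of the 4 members tested had entered through KOWI, their directions in the KOWI comparisons are not counted. Without the filter on dim probes the other members lay near background, and in KOWI over WT gave log2 ratios of -0.05 for H2-Aa, 0.02 for H2-DMa, 0.03 for H2-DMb2, -0.09 for H2-Oa and -0.20 for H2-Ob (SE 0.13 to 0.14, limma adjusted p from 0.741 to 1.00). The organoid comparisons share samples. For KO over WT limma called 0 of 10200 genes (0%), with 560 at an unadjusted p under 0.05 and none of them a member, and for KOWI over KO 43 (0.422%), none of them a member. The count of 570 genes called in KOWI over WT was not stable. Fewer were called without KOWI 1, KOWI 2, KO 2, WT 1 or WT 2, and more without KO 1. Each such fit left 1 sample in a group and tested fewer genes. A changed count therefore does not show that the calls rested on the sample left out. The 43 of KOWI over KO became 0 without KO 2 or KOWI 2, 92 without KO 1, 120 without WT 1 and 119 without WT 2.

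The KO effect itself was set between tissue and organoids for the members tested in both. For H2-Ab1 and Ciita the probe also differed, so probe and setting cannot be told apart for these genes. The log2 difference, tissue minus organoids, was -0.21 for H2-Ab1 (SE 0.17), -0.47 for Cd74 (SE 0.42), 0.10 for Ciita (SE 0.54) and -0.27 for H2-DMb1 (SE 0.15). None passed the test (limma adjusted p from 0.522 to 0.952), and neither did any of 8849 genes (0%; 1111 at an unadjusted p under 0.05).

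Cxcl10, a chemokine induced by interferon gamma, was the 1 of 7 tested interferon gamma response genes that passed in KOWI over WT. It read 139 and 244 in WT 1, 566 and 521 in KO 1 and 1102 and 1195 in KOWI 1, and 360 and 569 in WT 2, 807 and 1138 in KO 2 and 2981 and 2170 in KOWI 2. KOWI was highest within each dye, and the log2 ratio over WT was 1.84 in both replicates (SE 0.19, 3.59-fold, adjusted p = 0.0183). The list's median was 0.56 in KOWI over WT, with 5 of 7 genes above 0, and 0.29 in KO over WT, where Cxcl10 was at 1.28 (SE 0.19, adjusted p = 0.331). Of all genes tested, 52.0% were above 0 in KOWI over WT. Like the members, a list gene could enter the test through 1 group alone. The counts above 0 of this and the following lists are therefore descriptions only. The genes between receptor and Ciita had a median of -0.24 in KOWI over WT, with 1 of 6 above 0, from Ifngr1, a chain of the receptor, at -0.63 (SE 0.27) to Jak1 at 0.01.

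The other lists of the pathway had no gene past the test in organoids. In KOWI over WT the class I pathway had 1 of 13 genes above 0 (median -0.17), from H2-K1, a class I heavy chain, at -0.80 (SE 0.23, adjusted p = 0.115) to Psmb8, an immunoproteasome subunit, at 1.05 (SE 0.27, adjusted p = 0.0911). The endosomal proteases had 3 of 10 above 0 (median -0.25), from Ctss, which trims the invariant chain, at -0.63 (SE 0.64, with -1.87 and 0.62 in the replicates) to Ctsh at 0.72 (SE 0.22). The transcription factors of the class II promoter had 4 of 6 above 0 (median 0.12), from Nfyc at -0.48 (SE 0.18) to Nfya at 0.51 (SE 0.17), both NF-Y subunits.

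Markers were read in organoids through the probes that were brightest in tissue. All 12 epithelial genes were well above background in every usable organoid channel, and 3 of them (Krt19, Cdh1 and Cdx2) lost 1 array each to an outlier spot. Krt20, a keratin of mature surface cells, fell by 1.46 on the log2 scale in KOWI over WT (SE 0.25, adjusted p = 0.0403), and Vil1, which bundles actin in the brush border, fell by 1.23 (SE 0.19, adjusted p = 0.0326). Of 10 leukocyte genes, counting only those with no outlier spot, 0 were well above background throughout WT or KO organoids and 2 throughout KOWI, Cd53 and Coro1a. Was and Cd37, with outlier spots on 4 of 6 arrays, were well above background in 4 of 4 usable channels. The summed signal of the 10 leukocyte genes in Cy3 was 63 to 112 in WT, 115 to 497 in KO and 320 to 409 in KOWI. It leaves out outlier spots, so the genes summed differ between arrays. In Cy5 it was 483 to 1342, 276 to 435 and 937 to 1397.

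Cd53, a tetraspanin of leukocytes, rose with H2-DMb1 in KOWI over WT (log2 1.03, SE 0.16, adjusted p = 0.0319). Like H2-DMb1 it entered the test only through KOWI. It read 157 and 190 in KOWI 1 and 483 and 579 in KOWI 2, against 0 to 56 in the other Cy3 channels and -11 to 125 in the other Cy5 channels. Lck, a T cell kinase, rose by 1.36 (SE 0.25, adjusted p = 0.0462), and Mertk, a phagocyte receptor, fell by 1.43 (SE 0.22, adjusted p = 0.0310). Other markers went both ways on the organoid arrays. Ptprc read -17 to 15, Itgax, the integrin CD11c, read -29 to 4, and Adgre1 read -17 to 62, and none of these was well above background in any of 12 channels. The same held for Ms4a1, which encodes CD20, and for C1qc and Thy1. In contrast, some markers gave signal in every usable channel: Siglech, of plasmacytoid dendritic cells, read 1322 to 22835 in Cy3 and 3824 to 100918 in Cy5, and the macrophage genes Mrc1 (263 to 1090 and 1028 to 10924), Cd68 (272 to 727 and 1069 to 1414), Csf1r (44 to 121 and 251 to 658) and Lyz2 (22 to 724 and 305 to 1368) did so too. Outlier spots removed 4 of 6 arrays for Cd68 and 3 for Csf1r. Counted in the same way, the B cell list had 0 of 5 genes well above background throughout any organoid group, the dendritic cell list 1 of 7 in KOWI and none in WT or KO, the macrophage list 1 of 11 in KOWI and 2 of 11 in WT and in KO, and the T cell list 1 of 10 in each. The part of these genes in the H2-DMb1 value was not tested.

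The genes whose fitted values ran most like those of Cd74 over the 6 organoid samples, of 10200 genes, were Zbp1 (r = 0.985), a sensor of nucleic acid, Ifi27l2a (r = 0.977), an interferon-induced gene, Ubxn11 (r = 0.974), Setd2 (r = 0.973), a histone methyltransferase, and Senp6 (r = 0.972), a SUMO protease. These are descriptions over 6 values that share arrays. Other class II members were less alike, at 0.51 for H2-DMb1, 0.31 for Ciita and 0.19 for H2-Ab1.

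The targeted gene was read as a check of the labels. The Trp53 probe gave log2 ratios of KO over WT of -0.46 and 0.04 in the tissue pairs, so KO mouse 2 was not lower than its partner. In organoids Trp53 gave -1.07 and -0.59 in KO over WT and -0.95 and -0.64 in KOWI over WT, and neither mean passed the test (limma adjusted p = 0.561 and 0.0779). The Trp53 probe brightest in tissue was well above background in 4 of 12 organoid channels. A gene could enter the organoid test through 1 group alone, which limits this check. Whether the probe lies in the deleted part was not determined. On the arrays with KOWI 13.9 to 16.3% of spots were outliers, against 1.27 to 5.12% on the rest. In each channel of the 10 arrays 44.6 to 59.1% of probes were well above background.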

How the data were processed

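The members and gene lists were chosen with earlier results of these data known. Per the file headers, the authors deposited scanner output (Agilent Feature Extraction 12.2.0.7) with Cy3 and Cy5 intensity per spot and a log10 ratio. They also deposited a table of log2 ratios; per the submitters' processing notes limma was used, and further steps are not given in the sources used here. Set against the scanner ratios, its columns had slopes of 0.967 to 0.999 and medians of -0.000351 to 0.0173, so it runs as Cy5 over Cy3. Coordinates are mm9, per the file headers.

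Here, limma 3.58.1 (R 4.3.3) corrected background (normexp, offset 50), normalized within arrays (loess), dropped outlier spots and averaged spots of a probe. The brightest probe stood for a gene in each experiment. Dye swaps were turned and averaged to 2 pair ratios. The 6 organoid ratios were solved by least squares for 6 sample values and fitted on group and replicate; a gene with 1 unusable array was kept while its samples stayed linked. p-values were Benjamini-Hochberg adjusted over all genes (threshold 0.05) and measure the spread between these samples. The number of arrays limits the precision. Tissue levels per mouse came from single channels (loess, Aquantile). Signals are the scanner's background-subtracted values. Probes were named through RefSeq accessions (35405), symbols (9124) or synonyms (25), and 12051 had no name. The fits were tested on 2 kinds of simulated data: false calls stayed near the threshold's rate where variances followed limma's own prior, but exceeded it, most in tissue, where each gene's moderated variance was used, so adjusted p-values can be too small if variances depart from that prior. The first kind was added after the second had shown the excess. Named were all members, the list genes past the threshold or else each list's highest and lowest, the 5 genes most like Cd74, and markers whose values bear on a result.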

Additional observations from a re-analysis of the deposited data

How the results depend on the processing

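Over 338 alternative values of 24 member results, 326 kept their side of the threshold, 3 gained a call and 9 lost one. None counted as reversed, which took a change of sign with a call in either value, or with both values beyond their SE. Signs did change short of that. Ciita in tissue KO over WT was above 0 in 9 of 14 settings (-0.53 to 0.58). H2-Ab1 in KOWI over WT was above 0 in 15 of 18 (-0.33 to 0.90), and H2-DMb1 in KOWI over WT in all 19. The 9 losses were those of H2-DMb1 in KOWI over WT, 5 of them without single samples. The other 4 came with the scanner software's ratio (log2 1.77, adjusted p = 0.103), median centring (1.20, 0.112), the authors' table (1.86, 0.0855) and outlier spots kept (1.21, 0.0719). The gains were Cd74 in KOWI over WT with arrays taken as independent (0.55, adjusted p = 0.0376) or single channels, and H2-DMb1 in KOWI over KO with arrays taken as independent (0.89, adjusted p = 0.000450).

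Genes called changed more. In tissue there were 865 under median centring and 922 with arrays taken as independent, against 0. In KO over WT organoids there was 1 with probes under 14 or with probes averaged, 695 with arrays as independent, and 0 to 3 without single samples. For KOWI over WT there were 151 with the scanner's ratio, 198 under median centring, 4 with the authors' table, 252 without the filter on dim probes, 60 with outliers kept, 3333 with arrays as independent, 1821 from single channels with WT and KO read without KOWI, and 0 to 725 without single samples. For KOWI over KO these were 0, 28, 0, 4, 0, 2196, 1508 and 0 to 120, and 285 from single channels on all arrays. The tissue minus organoid count went from 0 to 15 under median centring. The causes were not tested. The deviations of same-numbered samples from their group means correlated at 0.22 (WT and KO), 0.17 (WT and KOWI) and -0.011 (KO and KOWI). With 2 samples a group, and the number equal to the dye, these values cannot decide whether the numbers pair the samples. The main fit holds a term for the number, and the ratios given by replicate set same-numbered samples against each other. Without the replicate block the counts were 410 (KOWI over WT), 40 (KOWI over KO), 0 (KO over WT) and 0 in tissue, and H2-DMb1 in KOWI over WT kept its call (adjusted p = 0.0345); no member's call changed. The alternatives with single channels in organoids, with probes chosen on tissue arrays and the samples left out for the tissue minus organoid count were chosen after seeing the data. Where a sample was left out, the lone sample of its group was assumed to vary like the other groups. Members near background in organoids limit what could be detected there.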

Other observations

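The H2-Ob probe at chr17:34377309-34377368 read at most 12 in either channel in tissue and at most 23 on 1 organoid array, but 1762 to 162577 on the other 5 organoid arrays, all as outlier spots. The largest reading was in WT 2 (Cy5), beside 35321 in KO 1 (Cy3). Another H2-Ob probe, at chr17:34385971-34386030, was well above background in both channels of 2 organoid arrays, at 144 and 535 beside 34 and 234.

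With outlier spots kept, H2-Eb1 in organoids had log2 ratios of -0.03 in KO over WT, -0.42 in KOWI over WT and -0.38 in KOWI over KO (SE 0.34 each, limma adjusted p from 0.683 to 1.00).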
